A study of Mus musculus with 12 samples.

Results

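A set of 10 selenoprotein genes, Gpx4 among them, was followed in mouse regulatory T (Treg) cells, the Foxp3-expressing T cells that restrain immune responses. The genes are Gpx4, Gpx1, Txnrd1, Txnrd2, Selenok, Selenos, Selenow, Selenof, Selenot and Selenop. They were taken by symbol from a table of 24502 genes, and each of the 10 was found once and was among the 14827 genes that passed the filter on low counts. The study compared sorted Treg cells of mice of strain Foxp3CreGpx4fl/fl, called Gpx4-deficient, with those of mice labelled WT. In the Foxp3CreGpx4fl/fl strain, Cre recombinase driven from Foxp3 removes a loxP-flanked stretch of Gpx4, so that the deletion is limited to Foxp3-expressing cells and to the cells in which Cre acted. The labels do not say whether the WT mice carried the Foxp3-driven Cre. All mice were 11 weeks old. The 4 groups were stimulated Gpx4-deficient, stimulated wild-type, unstimulated Gpx4-deficient and unstimulated wild-type cells, with 3 libraries in each and 12 in all. Stimulated cells had been kept for 4 h on plates coated with anti-CD3 and anti-CD28 antibodies (5 µg/ml), which engage the T cell receptor and its costimulator. No time in culture is given for the unstimulated cells, so stimulation and culture cannot be told apart. Nothing in the labels says that the 3 libraries of a group came from separate mice, so p-values measure only how far these libraries spread, and that spread may be technical.

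Selenoproteins carry selenocysteine, an amino acid inserted at a UGA codon that would otherwise end translation. The insertion needs a hairpin in the 3′ untranslated region of the mRNA, a binding protein (SECISBP2), a dedicated elongation factor (EEFSEC) and its own tRNA. In most of these enzymes the selenocysteine does the redox chemistry. GPX4 uses it to reduce lipid hydroperoxides within membranes with glutathione, and its loss opens T cells to ferroptosis, a death driven by iron-dependent lipid peroxidation.

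Where the selenocysteine lies separates the members into groups. In the coding sequence of the principal transcript (GENCODE M21, build GRCm38), 9 of the 10 members had 1 in-frame TGA codon before the stop and Selenop had 10, and the annotation marks each as selenocysteine. In Gpx4 it was codon 73 of 197, in Gpx1 codon 47 of 201, in Selenow codon 13 of 88 and in Selenot codon 49 of 195. In Txnrd1 it was codon 498 of 499 and in Selenos codon 189 of 190, next to last in both. The 6 members for which any comparison passed the test are given here, with 24 bases on each side where the coding sequence goes that far. The TGA is in capitals, all are written 5′ to 3′ on the coding strand, and for Selenop the first of the 10 codons is given.
Gpx4, TGA at chr10:80054737-80054739, exon 3 of 7: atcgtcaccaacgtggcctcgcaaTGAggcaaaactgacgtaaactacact
Gpx1, TGA at chr9:108339451-108339453, exon 1 of 2: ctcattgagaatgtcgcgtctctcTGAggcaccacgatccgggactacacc
Txnrd1, TGA at chr10:82896037-82896039, exon 14 of 14: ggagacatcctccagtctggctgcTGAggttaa
Selenos, TGA at chr7:66088844-66088846, exon 6 of 6: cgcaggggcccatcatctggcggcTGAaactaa
Selenow, TGA at chr7:15920464-15920466, minus strand, exon 2 of 6: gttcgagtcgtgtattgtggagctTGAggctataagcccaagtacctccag
Selenop, TGA at chr15:3274848-3274850, exon 2 of 5: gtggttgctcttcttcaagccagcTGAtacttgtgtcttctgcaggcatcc
In Txnrd1 and Selenos the stop codon TAA follows within 2 codons of the TGA. In Gpx4, Gpx1 and Selenow a long stretch of coding sequence lies after it, with 124, 154 and 75 codons.

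Gene levels are CPM, which are counts scaled to library size, made from deposited RSEM expected counts. The smallest library held 24629230 counts and the largest 31879267, and 5 CPM stood for 123 reads in the smallest library. Libraries of stimulated Gpx4-deficient cells varied most among themselves, with Pearson's r of 0.795 to 0.82 between pairs over all tested genes, against 0.916 to 0.921 in unstimulated wild-type cells. Their mitochondrial share was 2.84% to 3.72% of counts, against 1.18% to 1.37% in stimulated wild-type, 1.72% to 1.94% in unstimulated Gpx4-deficient and 1.21% to 1.38% in unstimulated wild-type libraries, and its part in the results below was not tested. All 6 Treg markers were present in every group, and Foxp3 was present in every library, at 47.9 to 75.9, 33.7 to 43.5, 22.3 to 36.7 and 20.6 to 26.8 CPM in stimulated Gpx4-deficient, stimulated wild-type, unstimulated Gpx4-deficient and unstimulated wild-type cells. In bulk RNA, fewer cells with a transcript and less of it per cell cannot be told apart.

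Between genotypes Gpx4 itself was the one member that passed the test, while 5 members changed with stimulation in one genotype or both. A gene was called when its edgeR adjusted p, taken over all 14827 genes, was under 0.05. Between genotypes, 1 of 10 members was called in stimulated cells, where 2.27% of all tested genes were, and 1 of 10 in unstimulated cells, where 0.0674% were. Both were Gpx4, whose fall the deletion sets. Stimulation called 4 of 10 members in Gpx4-deficient cells, where 15.3% of all genes were called, and 4 of 10 in wild-type cells, where 11.5% were. Txnrd1 rose, and Gpx1 and Selenow fell, in both genotypes. Selenos rose past the test in Gpx4-deficient cells and Selenop fell past it in wild-type cells. The interaction is the difference between the genotypes in the log2 response to stimulation, Gpx4-deficient minus wild-type. No member passed its test, which called 0.202% of all genes. Selenos alone of the 10 had an unadjusted p under 0.05 there, as had 1298 of all 14827 genes. DESeq2 and limma-voom also called 0 of the 10. The median log2 fold change of the 10 members between genotypes was 0.05 in stimulated and -0.30 in unstimulated cells, beside 0 and 0.006 over all genes. For stimulation it was -0.22 in Gpx4-deficient and -0.42 in wild-type cells, beside -0.02 and -0.04 over all genes.

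**Figure D1:**
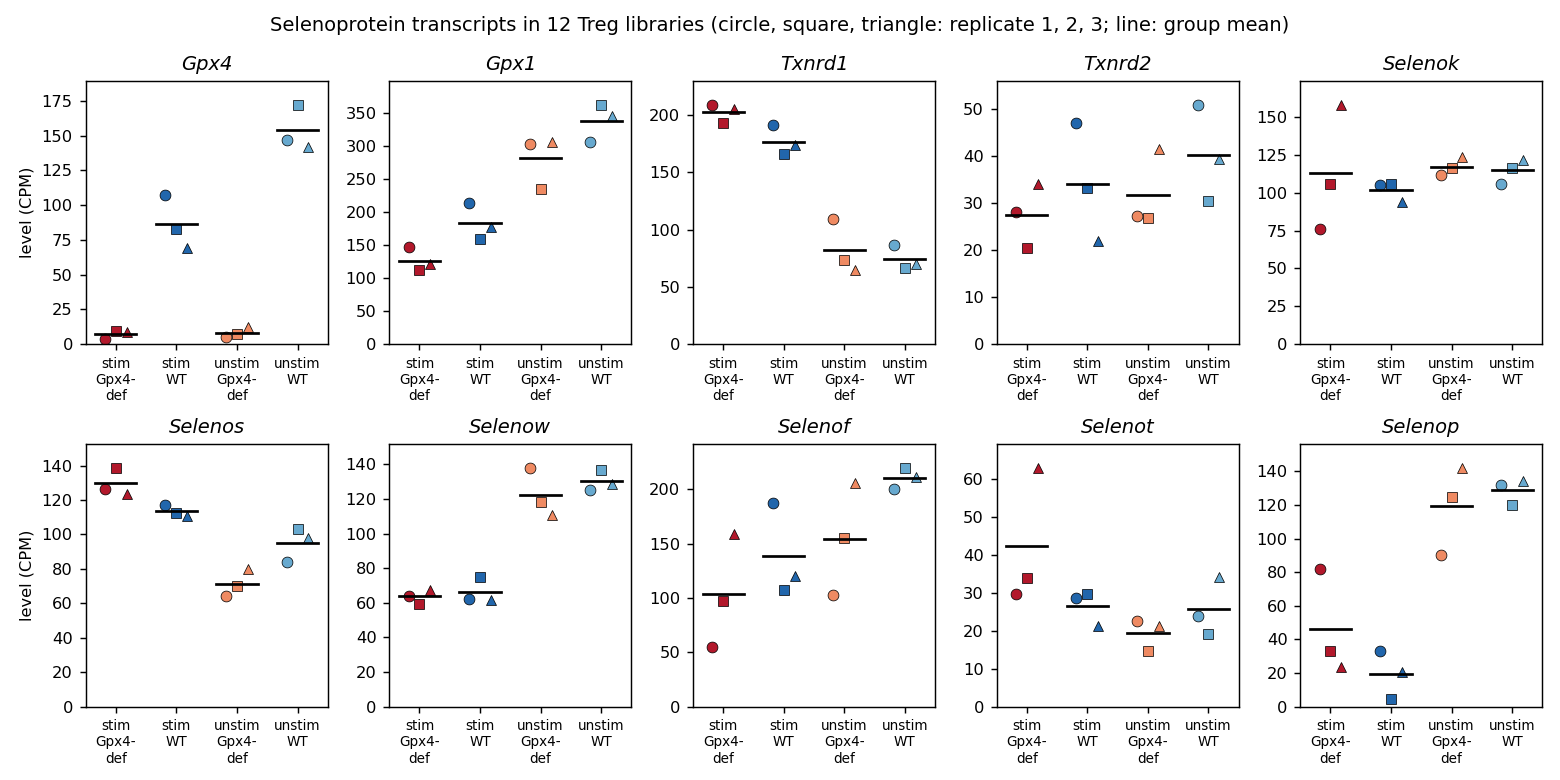
Level of each of the 10 genes in CPM (vertical axis, from 0, scaled per gene) in the 3 libraries of each group (points) with the group mean (line). Gpx4 lies at 3.34 to 12.3 CPM in all 6 Gpx4-deficient libraries and at 69.2 to 172.1 CPM in all 6 wild-type libraries, while Gpx1, Txnrd1 and Selenow separate by stimulation.

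Gpx4, which encodes the lipid hydroperoxide reductase and is the deleted gene, lies at chr10:80047166-80056439 on the plus strand. It measured 3.34, 9.23 and 8.52 CPM in stimulated Gpx4-deficient libraries, against 107.5, 82.8 and 69.2 CPM in stimulated wild-type ones. Without stimulation it measured 4.96, 7.30 and 12.3 CPM in Gpx4-deficient libraries, against 147.1, 172.1 and 141.9 CPM in wild-type ones. Every Gpx4-deficient library lay far below every wild-type library, as the labels have it. The means were 7.03 ± 3.22 CPM against 86.5 ± 19.4 CPM with stimulation, and 8.20 ± 3.77 CPM against 153.7 ± 16.1 CPM without it (SD, n = 3 each). By edgeR, the log2 fold change of Gpx4 was -3.62 in stimulated cells (SE 0.434, adjusted p = 0.00171) and -4.23 in unstimulated cells (SE 0.446, adjusted p = 0.00458). What remained was 8.13% of the wild-type mean with stimulation and 5.34% without it, from 93 to 298.51 expected counts in each stimulated library. The gene-level table does not say which exons these reads cover.

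Among wild-type cells, Gpx4 was lower in all 3 stimulated libraries than in all 3 unstimulated ones, but the difference did not pass the edgeR test. The log2 fold change of stimulation was -0.83 in wild-type cells (95% interval -1.69 to 0.03, adjusted p = 0.233) and -0.22 in Gpx4-deficient cells (adjusted p = 0.78). With limma-voom the wild-type value was -0.85 with an adjusted p of 0.0107, so this call depends on the tool.

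A processed pseudogene, Gpx4-ps2, also on chromosome 10, is nearly identical to Gpx4, with 760 of 762 aligned bases the same. Reads of the 2 genes can therefore be divided between them in an uncertain way. Gpx4-ps2 averaged 0.189 CPM in stimulated Gpx4-deficient and 4.56 CPM in stimulated wild-type cells, and 1.03 CPM in unstimulated Gpx4-deficient and 7.26 CPM in unstimulated wild-type cells. Its level was likewise lower in Gpx4-deficient cells in both states, without passing the edgeR test (adjusted p = 0.13 with stimulation and 0.868 without). Over all libraries its counts were 5.11% of those of Gpx4, most of them from wild-type cells. Its share of the summed counts of the 2 genes was 4.27% to 5.46% in single wild-type libraries. In single Gpx4-deficient libraries it was 0 (stimulated replicate 1) to 28.6% (unstimulated replicate 1). With the counts of both added together, the means were 7.22 CPM against 91.1 CPM with stimulation and 9.22 CPM against 160.9 CPM without it, Gpx4-deficient before wild-type, and no call changed.

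The 4 listed genes beside Gpx4 on chromosome 10 were not called lower between genotypes, but Stk11, a neighbour not on the list, was in stimulated cells. Sbno2, a transcriptional regulator that lies 553 bases beyond the end of Gpx4 on the other strand, and Polr2e, an RNA polymerase subunit 7371 bases before it, passed no test. Sbno2 averaged 181 CPM in stimulated Gpx4-deficient, 178 CPM in stimulated wild-type, 126 CPM in unstimulated Gpx4-deficient and 116 CPM in unstimulated wild-type cells. Polr2e averaged 103, 112, 123 and 141 CPM in the same order of groups. Arhgap45, a GTPase-activating protein 15694 bases before Gpx4, was higher in stimulated Gpx4-deficient cells (log2 fold change 0.53, edgeR adjusted p = 0.0387), at 432 CPM against 298 CPM in stimulated wild-type cells. Arhgap45 and the lipid transporter Abca7, 31594 bases before Gpx4, both fell with stimulation. For Arhgap45 the log2 fold change was -2.25 in Gpx4-deficient and -2.62 in wild-type cells (edgeR adjusted p = 2.77e-07 and 9.37e-08). For Abca7 it was -1.81 and -0.88 (edgeR adjusted p = 3.01e-04 and 0.0277). Stk11, the kinase LKB1, lies 59364 bases beyond Gpx4 and was chosen after its values were seen. It averaged 35.9 CPM in stimulated Gpx4-deficient and 72.6 CPM in stimulated wild-type cells (log2 fold change -1.02, SE 0.231, edgeR adjusted p = 0.0433). Without stimulation it averaged 46.8 CPM in Gpx4-deficient and 54.6 CPM in wild-type cells and was not called.

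**Figure D2:**
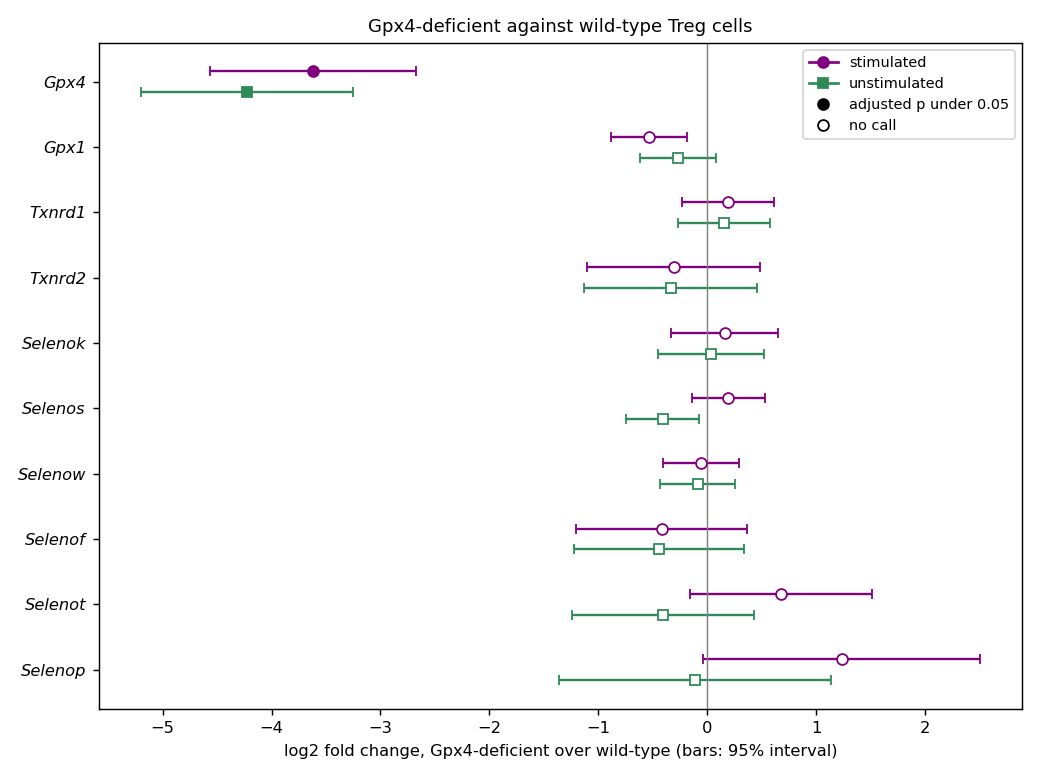
Log2 fold change of Gpx4-deficient over wild-type cells (horizontal axis) for the 10 genes in stimulated and unstimulated cells, with 95% intervals; filled points have an edgeR adjusted p under 0.05. Only Gpx4 is filled, at -3.62 and -4.23, and the intervals of Gpx1 with stimulation and of Selenos without it also leave out 0 before adjustment.

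Gpx1, the cytosolic peroxidase that reduces hydrogen peroxide and soluble hydroperoxides, was the member with the highest level per length. It measured 146.8, 112.4 and 120.9 CPM in stimulated Gpx4-deficient libraries and 214.0, 159.4 and 177.1 CPM in stimulated wild-type ones. In unstimulated libraries it measured 303.6, 235.3 and 306.0 CPM in Gpx4-deficient cells and 307.0, 362.9 and 345.6 CPM in wild-type cells. Within each genotype every stimulated library lay below every unstimulated one. Gpx1 fell with stimulation by 1.15 on the log2 scale in Gpx4-deficient cells (SE 0.161, edgeR adjusted p = 5.15e-04) and by 0.88 in wild-type cells (SE 0.161, edgeR adjusted p = 0.00314). The interaction was -0.27 (95% interval -0.76 to 0.22, edgeR adjusted p = 0.817).

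Between genotypes, Gpx1 was lower in all 3 Gpx4-deficient libraries than in all 3 wild-type ones in each state, without passing the edgeR test. Without stimulation the gap was narrow, between 306.0 CPM in the highest Gpx4-deficient and 307.0 CPM in the lowest wild-type library. The means were 126.7 ± 17.9 CPM against 183.5 ± 27.8 CPM with stimulation, and 281.6 ± 40.2 CPM against 338.5 ± 28.7 CPM without it (SD, n = 3 each). The log2 fold change was -0.53 with stimulation (95% interval -0.88 to -0.19, adjusted p = 0.113) and -0.27 without it (95% interval -0.61 to 0.08, adjusted p = 0.998). DESeq2 gave -0.49 with an adjusted p of 0.0282 in stimulated cells, the one genotype call other than Gpx4 that any of the other tools made among the 10.

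Txnrd1 encodes the cytosolic thioredoxin reductase, which keeps thioredoxin reduced and is a target of the oxidant-responsive factor NRF2. It measured 208.9, 193.2 and 205.0 CPM in stimulated Gpx4-deficient libraries and 191.5, 165.6 and 173.6 CPM in stimulated wild-type ones. Unstimulated libraries gave 109.0, 73.7 and 64.7 CPM in Gpx4-deficient cells and 86.5, 66.5 and 69.5 CPM in wild-type cells. Every stimulated library was above every unstimulated one, and in stimulated cells the Gpx4-deficient libraries lay just above the wild-type ones. Txnrd1 rose by 1.29 on the log2 scale in Gpx4-deficient cells (SE 0.196, edgeR adjusted p = 8.82e-04) and by 1.25 in wild-type cells (SE 0.196, edgeR adjusted p = 0.00108). The interaction was 0.04 with a 95% interval of -0.56 to 0.64. Between genotypes the log2 fold change was 0.19 with stimulation (95% interval -0.23 to 0.62) and 0.15 without it (95% interval -0.27 to 0.58), and neither passed the edgeR test.

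Txnrd2, the mitochondrial thioredoxin reductase, passed no test. Its means were 27.5 ± 6.88 CPM in stimulated Gpx4-deficient, 34.1 ± 12.6 CPM in stimulated wild-type, 31.8 ± 8.33 CPM in unstimulated Gpx4-deficient and 40.2 ± 10.2 CPM in unstimulated wild-type cells (SD, n = 3 each). The 4 groups overlapped, and the edgeR intervals of its 2 genotype effects ran from -1.10 to 0.49 with stimulation and from -1.13 to 0.46 without it.

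**Figure D3:**
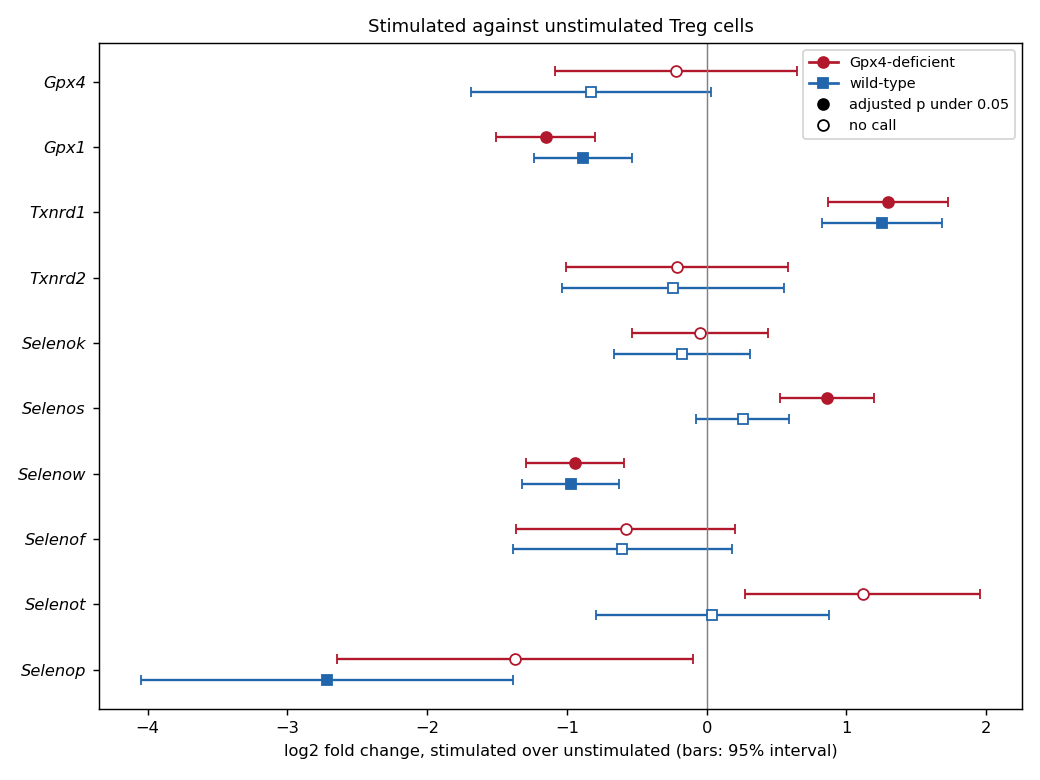
Log2 fold change of stimulated over unstimulated cells (horizontal axis) for the 10 genes in Gpx4-deficient and wild-type cells, with 95% intervals; filled points have an edgeR adjusted p under 0.05. Txnrd1 lies near 1.3 and Gpx1 and Selenow near -1 in both genotypes, Selenos is filled in Gpx4-deficient cells at 0.86, and Selenop in wild-type cells at -2.72.

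The next 4 members encode proteins of the endoplasmic reticulum, and they did not move as a group. Selenos, part of the complex that draws misfolded proteins out of that compartment, rose with stimulation in Gpx4-deficient cells. It measured 126.4, 138.8 and 123.5 CPM in stimulated Gpx4-deficient libraries and 117.3, 112.3 and 110.7 CPM in stimulated wild-type ones. Without stimulation it measured 64.3, 70.1 and 80.1 CPM in Gpx4-deficient libraries and 83.8, 103.2 and 97.9 CPM in wild-type ones. The 4 groups did not overlap: stimulated Gpx4-deficient libraries were highest, then stimulated wild-type, unstimulated wild-type and unstimulated Gpx4-deficient ones. The rise was 0.86 on the log2 scale in Gpx4-deficient cells (SE 0.155, edgeR adjusted p = 0.00264). In wild-type cells the value was 0.26 (95% interval -0.08 to 0.59, edgeR adjusted p = 0.368). The test of the difference between these responses gave 0.60 (SE 0.217, 95% interval 0.13 to 1.08), with an unadjusted p of 0.0171 and an edgeR adjusted p of 0.448, so a difference between genotypes was not shown over all genes.

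Selenot, a thioredoxin-like protein of the endoplasmic reticulum, measured 29.7, 33.9 and 62.9 CPM in stimulated Gpx4-deficient libraries and 28.5, 29.6 and 21.1 CPM in stimulated wild-type ones. Unstimulated libraries gave 22.4, 14.7 and 21.1 CPM in Gpx4-deficient cells and 23.8, 19.0 and 34.2 CPM in wild-type cells. All 3 stimulated Gpx4-deficient libraries were above all 3 unstimulated ones of that genotype, and replicate 3 was the highest of the 12. The log2 fold change of stimulation was 1.12 in Gpx4-deficient cells (SE 0.386, edgeR adjusted p = 0.0736) and 0.04 in wild-type cells (edgeR adjusted p = 0.978). DESeq2 gave 1.13 with an adjusted p of 0.0201 in Gpx4-deficient cells. With 1 library left out at a time, edgeR gave 0.71 to 1.33 there, with adjusted p of 0.0439 to 0.214. Of these 6 fits 5 made no call, and the call came without stimulated Gpx4-deficient replicate 1.

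Selenok, which takes part in the palmitoylation of the inositol trisphosphate receptor and in calcium release in immune cells, passed no test. Its means were 113.5 ± 41.5 CPM in stimulated Gpx4-deficient, 101.7 ± 6.73 CPM in stimulated wild-type, 117.4 ± 6.14 CPM in unstimulated Gpx4-deficient and 114.9 ± 8.01 CPM in unstimulated wild-type cells (SD, n = 3 each). The stimulated Gpx4-deficient libraries spread most, at 76.4, 105.7 and 158.3 CPM. Selenof, a partner of the glycoprotein folding sensor UGGT, also passed no test. It measured 54.5, 96.8 and 159.3 CPM in stimulated Gpx4-deficient libraries and 187.3, 107.4 and 120.6 CPM in stimulated wild-type ones. Unstimulated libraries gave 102.4, 155.5 and 206.0 CPM in Gpx4-deficient cells and 200.3, 220.0 and 211.1 CPM in wild-type cells. Replicate 3 was the highest of the stimulated Gpx4-deficient libraries for Selenok, Selenof and Selenot alike. The log2 fold change of stimulation for Selenof was -0.58 in Gpx4-deficient cells (95% interval -1.36 to 0.21) and -0.60 in wild-type cells (95% interval -1.39 to 0.18).

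Selenow encodes a small cytosolic protein of the thioredoxin fold, and its level fell with stimulation to about the same value in both genotypes. It measured 64.1, 59.5 and 67.5 CPM in stimulated Gpx4-deficient libraries and 62.3, 75.0 and 61.6 CPM in stimulated wild-type ones. Unstimulated libraries gave 138.1, 118.4 and 111.0 CPM in Gpx4-deficient cells and 125.4, 136.9 and 128.5 CPM in wild-type cells. Every stimulated library was below every unstimulated one, and the genotypes overlapped in each state. Selenow fell by 0.94 on the log2 scale in Gpx4-deficient cells (SE 0.160, edgeR adjusted p = 0.00176) and by 0.97 in wild-type cells (SE 0.160, edgeR adjusted p = 0.00145). The interaction was 0.03 with a 95% interval of -0.46 to 0.52.

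Selenop encodes the secreted selenium carrier of plasma, made chiefly by hepatocytes and also by macrophages, and it holds the 10 selenocysteine codons described above. It fell most of the 10 in stimulated wild-type cells. Its level was 81.7, 32.9 and 23.7 CPM in stimulated Gpx4-deficient libraries and 33.1, 4.79 and 20.8 CPM in stimulated wild-type ones. Unstimulated libraries gave 90.5, 125.1 and 142.3 CPM in Gpx4-deficient cells and 132.1, 120.0 and 134.5 CPM in wild-type cells. Stimulated libraries lay below unstimulated ones in both genotypes, but stimulated Gpx4-deficient replicate 1 came close to the lowest unstimulated one. The log2 fold change of stimulation was -2.72 in wild-type cells (SE 0.61, edgeR adjusted p = 0.0119) and -1.37 in Gpx4-deficient cells (SE 0.582, edgeR adjusted p = 0.138). Without stimulated Gpx4-deficient replicate 1 the second value was -2.05 with an edgeR adjusted p of 0.0396. Over all 6 fits with 1 library left out it was -2.05 to -1.06, with edgeR adjusted p of 0.0396 to 0.28. The other 5 fits made no call. Limma-voom on all libraries gave -1.55 with an adjusted p of 0.0152. The interaction was 1.35 (SE 0.813, edgeR adjusted p = 0.686), so the responses of the genotypes were not shown to differ.

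Like Selenop, the summed macrophage markers were lower in stimulated than in unstimulated libraries of both genotypes, but not every marker or list was. Summed over 10 macrophage markers, all in the table, the level was 65.2 to 92.3 CPM in stimulated Gpx4-deficient, 25.8 to 63.9 CPM in stimulated wild-type, 143 to 180 CPM in unstimulated Gpx4-deficient and 153 to 284 CPM in unstimulated wild-type libraries. Fcgr1 and Mrc1 were at 0 in all stimulated libraries. In Gpx4-deficient cells some means were higher with stimulation than without it. They were 13.9 against 0.654 CPM for Cd14, 9.55 against 7.97 CPM for Cd68, and 6.22 against 5.67 CPM for Adgre1. The other macrophage markers had lower means with stimulation there. In wild-type cells Cd14 alone was higher with stimulation, at 2.81 against 1.23 CPM. Csf1r, the receptor that defines the lineage, measured 0.0359, 0.123 and 21.5 CPM in stimulated Gpx4-deficient libraries and 0.0813, 0 and 0.121 CPM in stimulated wild-type ones. It was at 25.3 to 37.6 CPM in unstimulated Gpx4-deficient and 29.0 to 42.7 CPM in unstimulated wild-type libraries. Within the stimulated Gpx4-deficient group the order differed, since Csf1r was highest in replicate 3, where Selenop was lowest, and Lyz2 was highest in replicate 1, where Selenop was highest. Of 8 stromal, endothelial and epithelial markers listed, 6 were in the table. Their summed level was 52.9 to 93.8 CPM in stimulated Gpx4-deficient and 92.0 to 106 CPM in stimulated wild-type libraries. It was 178 to 211 CPM in unstimulated Gpx4-deficient and 177 to 193 CPM in unstimulated wild-type libraries. Most of that sum was Pecam1, which averaged 50.6, 78.9, 179 and 161 CPM in the same order of groups, so the sum followed this 1 gene. Epcam averaged 19.5, 19.2, 13.8 and 21.6 CPM. Col1a1, Col1a2, Cdh5 and Pdgfrb reached at most 5.41 CPM in any library. Cdh5 and Pdgfrb were at 0 in every group but unstimulated wild-type cells. The sum of 5 B cell markers was lower with stimulation in wild-type cells, at 13.9 to 24 CPM with stimulation against 40.2 to 51.9 CPM without it, and overlapped in Gpx4-deficient cells, at 5.03 to 60.8 CPM with stimulation and 26.2 to 47.6 CPM without it. The sum of 7 erythroid and platelet markers was also lower in wild-type cells, at 8.53 to 23.5 CPM with stimulation and 44.8 to 62.2 CPM without it, and overlapped in Gpx4-deficient cells, at 33.1 to 54.2 CPM with stimulation and 25.6 to 38.4 CPM without it. The sum of 8 neutrophil markers overlapped between states in both genotypes. It was 4.88 to 59.7 CPM with stimulation and 4.96 to 11.6 CPM without it in Gpx4-deficient cells. In wild-type cells it was 13.7 to 42.3 CPM with stimulation and 23.1 to 71.4 CPM without it. The part of RNA from other cells in the Selenop result was not tested. Of 5 listed hepatocyte markers 4 were in the table. Albumin, the defining hepatocyte transcript, was at 0 in all 12 libraries. The others reached at most 2.67 CPM (Apoh, stimulated wild-type), 0.653 CPM (Apoa1) and 0.0377 CPM (Serpina1c, both unstimulated Gpx4-deficient). Selenop shares 439 exon bases with Ccdc152 on the opposite strand, whose count was at most 8.56 in any library.

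**Figure D4:**
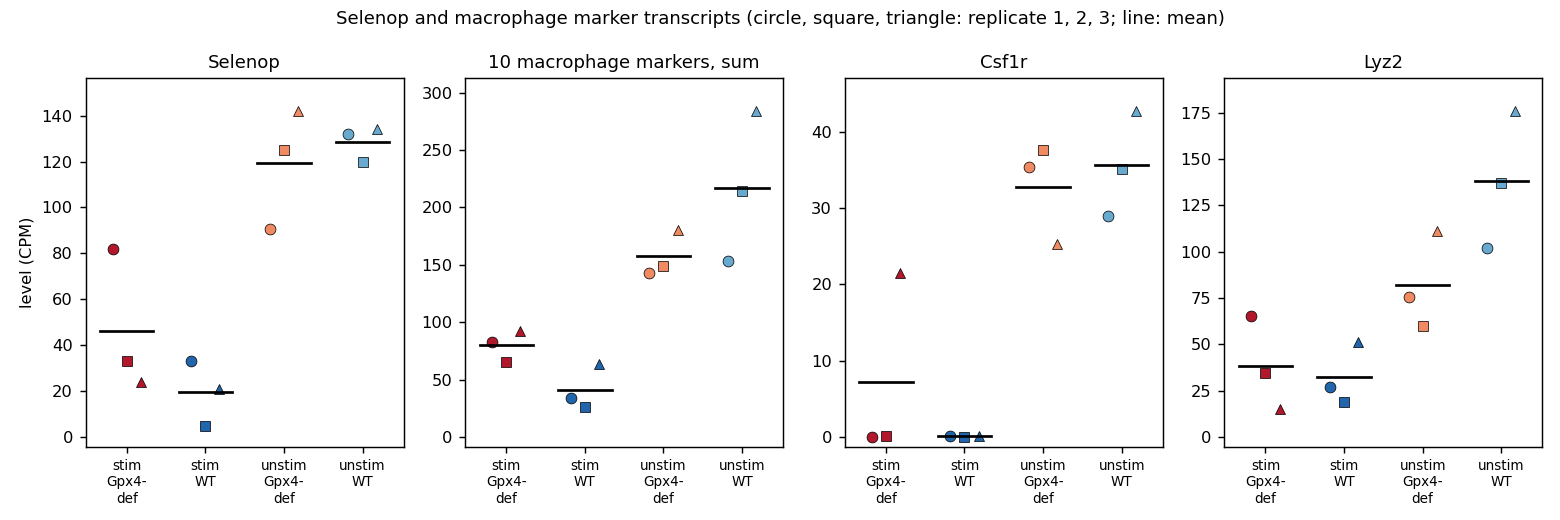
Selenop, the sum of 10 macrophage markers, Csf1r and Lyz2 in CPM (vertical axes, scaled per panel) in the 3 libraries of each group (points) with the group mean (line). The means of both unstimulated groups are above those of both stimulated groups in all 4 panels, with Csf1r at or near 0 in 5 of 6 stimulated libraries and at 21.5 CPM in stimulated Gpx4-deficient replicate 3.

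Levels can be compared between genes only per length, here as CPM per kb of the principal transcript. In stimulated Gpx4-deficient cells the order was Gpx1 (118), Selenos (109), Selenow (86.6), Selenof (68.4), Selenok (67.6), Txnrd1 (57.3), Selenop (22.1), Selenot (13.3), Txnrd2 (9.58) and Gpx4 (7.33 CPM per kb). In stimulated wild-type cells it was Gpx1 (171), Selenos (95.3), Selenof (91.4), Gpx4 (90.2), Selenow (90.1), Selenok (60.6), Txnrd1 (50.1), Txnrd2 (11.8), Selenop (9.39) and Selenot (8.37 CPM per kb). In unstimulated Gpx4-deficient cells Gpx1 (263) and Selenow (166 CPM per kb) led, and Gpx4 (8.55) and Selenot (6.15 CPM per kb) were last. In unstimulated wild-type cells Gpx1 (316), Selenow (177) and Gpx4 (160 CPM per kb) led, and Txnrd1 (21.0), Txnrd2 (14.0) and Selenot (8.14 CPM per kb) were last. Gpx1 stood clear of the next gene in every group but stimulated Gpx4-deficient cells, where its libraries overlapped those of Selenos. In unstimulated wild-type cells Gpx4 overlapped Selenow above it and not Selenof below it. In stimulated wild-type cells the libraries of Selenos, Selenof, Gpx4 and Selenow overlapped one with the next, so their order is not firm. The place of Selenof also depends on the length used, since with all annotated exons it was 7th in both wild-type groups. Of the length-scaled sum of the 10 members, Gpx4 held 1.31% in stimulated Gpx4-deficient and 13.3% in stimulated wild-type cells, and, without stimulation, 1.11% in Gpx4-deficient and 15.3% in wild-type cells.

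**Figure D5:**
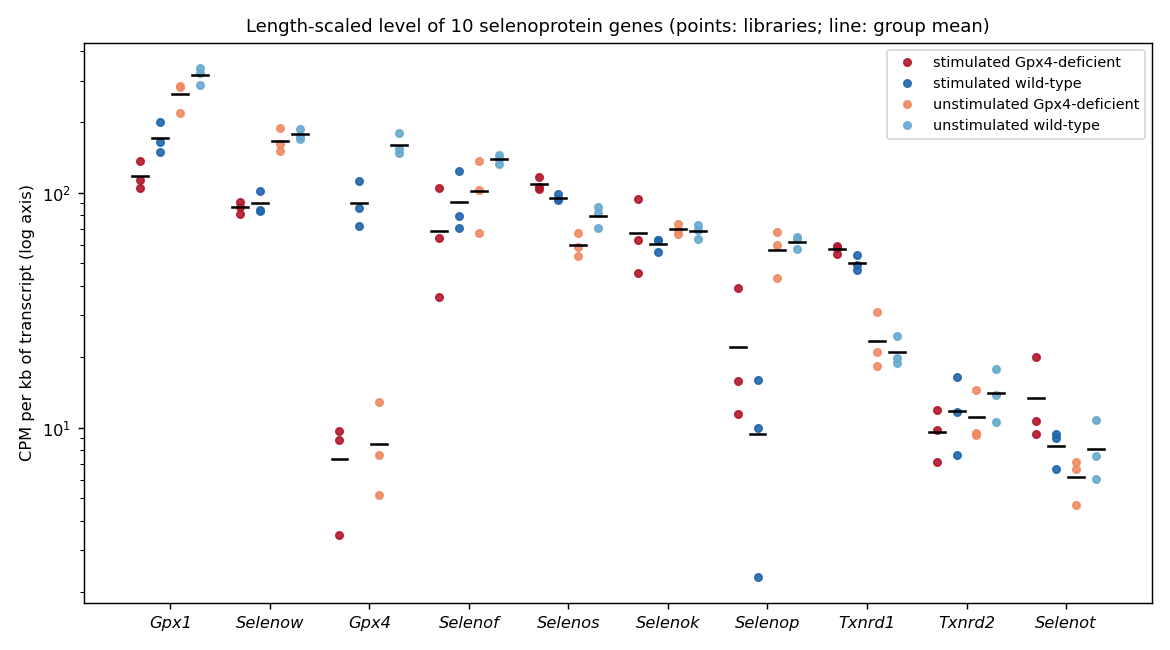
Length-scaled level of the 10 genes in CPM per kb of transcript (vertical log axis), ordered by the mean of unstimulated wild-type cells; points are libraries and lines are group means. Gpx1 is at or near the top in all 4 groups, and Gpx4 is at 160 in unstimulated wild-type cells and among the lowest in both Gpx4-deficient groups at 7.33 and 8.55.

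The summed level of the other 9 members overlapped between genotypes in stimulated cells. It was 855.1 ± 87.4 CPM in stimulated Gpx4-deficient and 860.4 ± 109 CPM in stimulated wild-type cells (SD, n = 3 each). Without stimulation it was 1001 ± 84.9 CPM in Gpx4-deficient and 1158 ± 36.5 CPM in wild-type cells. There the libraries did not overlap, at 936.2 to 1097 CPM against 1116 to 1182 CPM.

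Of 14 further genes of the mouse selenoprotein family, 12 were in the table and 8 were tested. The 1 call among them, for stimulation in wild-type cells, is 12.5% of the 8, about the 11.5% of all genes called there. Selenoh, a nuclear selenoprotein, fell with stimulation in wild-type cells by 1.86 on the log2 scale (SE 0.354, edgeR adjusted p = 0.0039), at 14.6, 11.9 and 10.4 CPM in stimulated against 43.9, 51.4 and 38.8 CPM in unstimulated libraries. In Gpx4-deficient cells it measured 12.9, 12.7 and 23.8 CPM with stimulation and 29.9, 35.8 and 35.4 CPM without it (edgeR adjusted p = 0.0653). The 7 other tested genes passed in no comparison. Gpx2 was at 0 in all libraries, and Gpx3, Dio2 and Dio3 stayed at or below 1.02 CPM in each. Of the glutathione peroxidases that carry cysteine in place of selenocysteine, only Gpx7 was tested, at a mean of 1.07 to 4.27 CPM per group, and it passed no test.

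A list of 13 genes covered the making and insertion of selenocysteine and also its breakdown (Scly) and the uptake of selenoprotein P (Lrp8 and Lrp2). Of these, 12 were tested and Sars was the one called, with stimulation, which is 8.33% in each genotype and below the share over all genes. Sars encodes the seryl-tRNA synthetase, which loads serine both on its usual tRNAs and on the selenocysteine tRNA. It measured 498, 407 and 338 CPM in stimulated Gpx4-deficient libraries and 668, 569 and 602 CPM in stimulated wild-type ones. Unstimulated libraries gave 151, 216 and 152 CPM in Gpx4-deficient and 205, 206 and 169 CPM in wild-type cells. Sars rose by 1.26 on the log2 scale in Gpx4-deficient (SE 0.177, edgeR adjusted p = 5.15e-04) and by 1.66 in wild-type cells (SE 0.179, edgeR adjusted p = 6.55e-05). None of the 12 was called between genotypes by edgeR. In stimulated cells 2 had an unadjusted p under 0.05, beside 2715 of all 14827 genes. These were Sars (log2 fold change -0.57, unadjusted p = 0.00731) and Secisbp2l (0.53, unadjusted p = 0.0427). In unstimulated cells 0 had, beside 860 of all genes. The factors specific to the pathway had no call, among them Secisbp2, which averaged 80.2 CPM in stimulated Gpx4-deficient, 60.3 CPM in stimulated wild-type, 55.6 CPM in unstimulated Gpx4-deficient and 45.3 CPM in unstimulated wild-type cells. Eefsec averaged 101, 78.0, 93.0 and 102 CPM in the same order of groups.

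Since Txnrd1 is a target of NRF2, other targets were set beside it. Of 16 listed, 15 were tested. With stimulation, 5 rose and 1 fell in Gpx4-deficient cells, and 1 rose and 1 fell in wild-type cells. That is 40% of the tested targets in Gpx4-deficient cells, where 15.3% of all genes were called, and 13.3% in wild-type cells, near the 11.5% of all genes. The 5 were Gclm, the regulatory subunit of glutathione synthesis (log2 fold change 1.64, edgeR adjusted p = 0.021), the cystine transporter Slc7a11, sulfiredoxin Srxn1 (4.90, adjusted p = 0.0102), peroxiredoxin Prdx1 (0.52, adjusted p = 0.0289) and ferritin heavy chain Fth1 (0.48, adjusted p = 0.00255). In wild-type cells the values were also positive, without a call, at 0.79 for Gclm, 2.64 for Srxn1, 0.18 for Prdx1 and 0.12 for Fth1 (edgeR adjusted p = 0.291, 0.121, 0.548 and 0.466). With stimulation Srxn1 averaged 21.1 CPM in Gpx4-deficient and 20.7 CPM in wild-type cells. Slc7a11 rose in Gpx4-deficient cells (edgeR adjusted p = 0.0194) and in wild-type cells (edgeR adjusted p = 0.0127). Its level was 2.23, 1.64 and 41.6 CPM in stimulated Gpx4-deficient and 6.71, 8.42 and 3.60 CPM in stimulated wild-type libraries, against at most 0.105 CPM in unstimulated Gpx4-deficient ones and 0 in all unstimulated wild-type ones. Taldo1, a pentose phosphate enzyme, fell by 0.81 in Gpx4-deficient cells (edgeR adjusted p = 0.027) and by 0.93 in wild-type cells (edgeR adjusted p = 0.0152). Between genotypes Fth1 was the one call, with 1710, 1820 and 1780 CPM in stimulated Gpx4-deficient libraries against 1320, 1400 and 1350 CPM in stimulated wild-type ones (log2 fold change 0.39, SE 0.085, edgeR adjusted p = 0.0387). Nqo1, a common marker of NRF2 activity, averaged 13.3 CPM in stimulated Gpx4-deficient and 1.38 CPM in stimulated wild-type cells without passing the edgeR test (adjusted p = 0.316). The libraries gave 10.2, 0.957 and 28.7 CPM against 1.34, 2.47 and 0.323 CPM, so replicate 2 of the Gpx4-deficient group lay within the wild-type range. None of the 15 passed the interaction test of edgeR. There 1 gene, Fth1, had an unadjusted p under 0.05 (0.0122), beside 1298 of all 14827 genes.

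Of 10305 genes whose mean log2 CPM reached 1, those whose log2 level was most like that of Gpx4 over the 12 libraries included Gm4366 (Pearson's r = 0.953), Rpn1 (0.91), Slc25a5 (0.895) and Gm4459 (0.891). Since the 12 libraries fall into groups, these values describe the group pattern and carry no test. Gm4366 is a processed pseudogene at chr7:116824510-116825851 on the minus strand. It measured 5.17, 5.49 and 4.64 CPM in stimulated Gpx4-deficient libraries against 166, 114 and 79.6 CPM in stimulated wild-type ones, and 9.63, 6.84 and 12.5 CPM in unstimulated Gpx4-deficient libraries against 123, 120 and 65.4 CPM in unstimulated wild-type ones. With Gpx4 it was the only gene of 14827 called lower in unstimulated Gpx4-deficient cells (log2 fold change -3.41, SE 0.365, edgeR adjusted p = 0.00458), and in stimulated cells its value was -4.55 (SE 0.386, edgeR adjusted p = 2.22e-04). Its transcript had no blastn match to a Gpx4 transcript but was the same as Eef1g, an elongation factor gene, at 1337 of 1342 bases, so that its reads can be divided between the 2 in an uncertain way. Rpn1, a subunit of the oligosaccharyltransferase, averaged 194 CPM in stimulated Gpx4-deficient, 268 CPM in stimulated wild-type, 170 CPM in unstimulated Gpx4-deficient and 274 CPM in unstimulated wild-type cells. Most like Gpx1 were Eno1 (0.981), Cyba (0.976), Izumo1r (0.975), Psmb8 (0.973) and Coro1a (0.97). Each of the 5 had its highest mean in unstimulated wild-type cells and its lowest in stimulated Gpx4-deficient cells. Gpx1 had this order too, and choosing genes by likeness to Gpx1 favours it.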

How the data were processed

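RNA of 12 Treg samples was measured by sequencing. Each library took 600 ng of RNA and a stranded mRNA kit, per the labels' protocols. The deposited table holds RSEM expected counts per gene, the authors' estimates from their reads, of which 14.8% to 18.1% in a library were not whole. Per the submitters' processing notes the genome was GRCm38. Aligner, annotation and the use of strand in counting: not given in the sources used here.

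All 12 columns were matched to samples by title or description. Expected counts were rounded and tested with edgeR 4.0.16 in R 4.3.3 (TMM scaling, filterByExpr, robust quasi-likelihood F test, Benjamini-Hochberg adjustment over 14827 genes). All 12 libraries shared 1 model with a mean per group (8 residual degrees of freedom), from which 5 comparisons were drawn. Levels are CPM on TMM-scaled library sizes, as mean ± SD over libraries. Standard errors and 95% intervals come from the F statistic. Gene models and selenocysteine codons come from GENCODE M21, and near-identical transcripts were found with blastn 2.17.0+ at 90% identity or more over at least 200 bases. The fit was tested on simulated data.

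The 10 members, the gene lists and the markers were chosen with earlier results of these data known. The text names all 10 members, each listed gene called in any comparison and the 5 genes most like Gpx4 and Gpx1 by Pearson's r of log2 CPM (prior count 2), of which 1 is not reported here. Other named genes, among them Stk11, Secisbp2, Eefsec and Nqo1, were chosen after their values were seen. Alternatives were size factors of the RLE kind, no filter on low counts, DESeq2 1.42.0, limma-voom (limma 3.58.1), a replicate block and leaving out each library. Adding Gpx4-ps2 to Gpx4 was chosen after seeing the data.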

Additional observations from a re-analysis of the deposited data

Results flagged for a closer look

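Selenos was picked from the members and listed genes because its genotype difference took opposite directions in the 2 states without overlap. The separation given here is what picked it, and how many of all genes meet this rule was not counted. In stimulated cells all 3 Gpx4-deficient libraries were above all 3 wild-type ones, with a log2 fold change of 0.19 (95% interval -0.14 to 0.53, edgeR adjusted p = 0.572). In unstimulated cells all 3 Gpx4-deficient libraries were below all 3 wild-type ones, with a log2 fold change of -0.41 (95% interval -0.74 to -0.07, edgeR adjusted p = 0.776). Neither passed the test. The difference between these values, tested as the interaction, was 0.602 (SE 0.217), with an edgeR adjusted p of 0.448 and an unadjusted p of 0.0171. It was 0.561 to 0.717 when each of the 12 libraries was left out in turn, with edgeR adjusted p of 0.29 to 0.719.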

How the results depend on the processing

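With RLE size factors, all 50 log2 fold changes of the 10 members kept their direction and their side of the threshold. No called member lost its call when any 1 library of its comparison was left out. Counts of genes called over the whole table depended more on the tool. DESeq2 called 1564 genes in the genotype comparison of stimulated cells and 183 in that of unstimulated cells, against 337 and 10 by edgeR. It called 3609 for stimulation in Gpx4-deficient and 2639 in wild-type cells, against 2266 and 1709, and 380 for the interaction, against 30. It called 2 members rather than 1 between genotypes in stimulated cells, the second being Gpx1. With limma-voom the counts were 21 for genotype in unstimulated cells and 0 for the interaction. The cause of these differences was not tested.

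The labels do not say whether same-numbered libraries of different groups share a source. Their deviations from the group means correlated at only -0.02 to 0.03, so no pairing was seen. This cannot exclude pairing, since noise in single libraries can hide it. With a replicate block, 171 genes were called for genotype in stimulated cells, 3 in unstimulated cells and 5 for the interaction, and no member's call changed. Under that block the interaction of Selenof was -0.034 and that of Txnrd2 -0.008, against 0.026 and 0.031 without it. With no filter on low counts, Selenot in wild-type cells turned to -0.002 for stimulation.

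Leaving out 1 library at a time gave 117 to 658 genes for genotype in stimulated cells, 3 to 14 in unstimulated cells and 2 to 167 for the interaction. For genotype in stimulated cells the count was 658 and 625 without stimulated Gpx4-deficient replicate 1 and 2, and 117, 158 and 164 without stimulated wild-type replicate 1, 2 and 3. The number of members called for stimulation in Gpx4-deficient cells was 4 to 6, with Selenop and Selenot added without replicate 1 of the stimulated group. Values that crossed 0 all belonged to comparisons that were not called. For stimulation in Gpx4-deficient cells they ran from -0.459 to 0.209 for Gpx4, -0.369 to 0.187 for Selenok and -0.396 to 0.032 for Txnrd2, and in wild-type cells from -0.146 to 0.313 for Selenot. For genotype in stimulated cells they ran from -0.162 to 0.418 for Selenok, -0.102 to 0.104 for Selenow and -0.494 to 0.014 for Txnrd2. In unstimulated cells they ran from -0.006 to 0.114 for Selenok, -0.22 to 0.072 for Selenop, -0.163 to 0.016 for Selenow and -0.078 to 0.34 for Txnrd1. For the interaction they ran from -0.428 to 0.361 for Selenof, -0.193 to 0.362 for Selenok, -0.028 to 0.165 for Selenow, -0.096 to 0.321 for Txnrd1 and -0.17 to 0.329 for Txnrd2.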

Other observations

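Of 11 other genes tied to ferroptosis, 9 were tested. With stimulation 44.4% of them were called in Gpx4-deficient cells and 33.3% in wild-type cells, where 15.3% and 11.5% of all tested genes were. The transferrin receptor Tfrc, which takes up iron, rose by 2.88 on the log2 scale in Gpx4-deficient cells (edgeR adjusted p = 5.97e-05) and by 2.55 in wild-type cells (edgeR adjusted p = 1.29e-04). Acsl4, which loads polyunsaturated fatty acids for membrane lipids, rose by 2.04 in Gpx4-deficient cells (edgeR adjusted p = 0.0136) and by 2.56 in wild-type cells (edgeR adjusted p = 0.00434). Lpcat3, which places such fatty acids in phospholipids, rose in Gpx4-deficient cells (log2 fold change 1.21, edgeR adjusted p = 0.0168), with a value of 0.67 in wild-type cells (edgeR adjusted p = 0.197). Gch1, the first enzyme of tetrahydrobiopterin synthesis, rose in wild-type cells (log2 fold change 2.08, edgeR adjusted p = 0.032), with a value of 1.27 in Gpx4-deficient cells (edgeR adjusted p = 0.145). None of the 9 passed the interaction test of edgeR, which called 0.202% of all genes. There 1 had an unadjusted p under 0.05, beside 1298 of all 14827 genes. It was again Fth1, which is on both lists. Fth1, described above, was called with stimulation in Gpx4-deficient cells and was also the one gene of this list called between genotypes, in stimulated cells.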
